A study of Mus musculus with 2 samples.

Results

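The collagen, laminin and integrin genes comprised 81 of the 21938 protein-coding genes of the basic GENCODE M21 annotation. They were chosen by symbol alone: every whole symbol naming a collagen chain, a laminin alpha, beta or gamma chain, or an integrin alpha or beta subunit. They fell into 11 fibrillar collagens, 17 basement membrane genes (6 type IV collagen chains and 11 laminin chains), 26 integrins and 27 other collagens. Accessible chromatin was mapped by DNase-seq, in which the nuclease DNase I cuts open DNA and the cut sites are sequenced. The tissue was the hindbrain of B6NCrl mouse embryos at embryonic day 14.5, healthy and pooled from males and females, with no treatment or mutation named. There was 1 group of 2 biological replicates, 1 library each from a separate tissue sample, so no comparison between conditions was possible and no test was made. In such bulk tissue, fewer cells with an open site and less opening per cell cannot be told apart.

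Collagens, laminins and integrins build the extracellular matrix and connect cells to it. Fibrillar collagens assemble into the fibres of connective tissue, whereas type IV collagen and laminin form the sheet-like basement membranes that surround blood vessels and cover the brain under the meninges. Integrins are cell-surface receptors of 1 alpha and 1 beta subunit that bind these proteins. Neural progenitors anchor to the basement membrane at the brain surface through them.

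For each library the authors deposited peaks, all 150 bp wide, each with a whole-number score whose meaning and scaling were not stated. Replicate 1 held 263679 peaks on the assembled chromosomes with a median score of 47. Replicate 2 held 148804 peaks with a median score of 30, so scores are given below as a pair, replicate 1 first, and not compared between the libraries. For a gene, the pair is the strongest promoter peak of each library, and where these are not 1 shared peak the text says so for the members. Peaks centred no more than 1 kb from one of a gene's transcription starts counted as its promoter peaks. Distal peaks were those centred over 1 kb away from all annotated starts but within 50 kb of the outermost start of the gene. Shared peaks are those with at least 1 bp in common with a peak called in the other replicate. Shared counts per gene are of replicate 1 peaks, so overlapping replicate 1 peaks that meet the same replicate 2 peak each count.

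The sequences under the shared peaks that the results turn on are shown first, as reference sequence (GRCm38, the assembly of the mm10 coordinates), 5′ to 3′ on the strand of the gene. Capitals mark matches, on either strand, to GGGCGG (bound by SP/KLF factors), CCAAT (NF-Y), CCGGAA (ETS), CAGCTG (an E-box) or the CTCF consensus. The first set holds the strongest shared promoter peak and the strongest shared distal peak of the fibrillar collagens, at Col1a1 (chr11:94937116-94937265, plus strand, in an intron) and at Col2a1 (chr15:97993016-97993165, minus strand, in an intron).
Col1a1 promoter: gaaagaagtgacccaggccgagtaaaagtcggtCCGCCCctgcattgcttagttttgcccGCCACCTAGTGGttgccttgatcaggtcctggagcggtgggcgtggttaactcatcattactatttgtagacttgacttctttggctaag
Col2a1 intron: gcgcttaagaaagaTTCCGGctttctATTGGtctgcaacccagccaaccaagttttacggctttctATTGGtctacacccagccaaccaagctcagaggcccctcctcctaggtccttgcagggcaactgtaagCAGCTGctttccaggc
The Col1a1 peak held a CTCF match starting at base 61 and a GGGCGG match starting at base 34, both on the reverse strand. The Col2a1 peak held a direct repeat of 17 bases, starting at bases 18 and 58, and each copy contained a reverse-strand CCAAT match.

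The basement membrane genes are represented by the strongest shared distal peak, upstream of Lama5 (chr2:180251376-180251525, minus strand), and by shared promoter peaks of the head-to-head type IV collagen pairs. The pair Col4a1 and Col4a2 is printed on the Col4a1 strand (chr8:11313136-11313285, minus strand), and the pair Col4a5 and Col4a6 on the Col4a5 strand (chrX:141475276-141475384, plus strand, the part of the peak before the start).
Lama5 upstream: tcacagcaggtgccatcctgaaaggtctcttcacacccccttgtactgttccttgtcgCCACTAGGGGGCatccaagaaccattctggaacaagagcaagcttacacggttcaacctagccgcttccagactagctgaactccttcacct
Col4a1/Col4a2 promoter: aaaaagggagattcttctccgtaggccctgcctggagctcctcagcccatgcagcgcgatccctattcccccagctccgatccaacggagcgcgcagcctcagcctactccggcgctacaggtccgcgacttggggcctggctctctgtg
Col4a5 promoter: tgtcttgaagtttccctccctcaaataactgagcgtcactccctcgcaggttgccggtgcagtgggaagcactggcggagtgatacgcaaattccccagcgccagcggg
The Lama5 peak held 1 CTCF match. Neither type IV collagen stretch as printed held any of the motifs searched. The Col4a1/Col4a2 stretch is a weaker peak of the pair, at 69 and 32. The strongest peak of that pair, which is not printed, held GGGCGG and CCAAT, and the unprinted part of the Col4a5 peak held GGGCGG.

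For the integrins and the other collagens, the strongest shared promoter stretches that could be shown lay at Itga8 (chr2:12301923-12302045, minus strand) and Col25a1 (chr3:130180656-130180805, plus strand), and the strongest shared distal peak of the other collagens lay just upstream of Col14a1 (chr15:55306436-55306585, plus strand).
Itga8 promoter: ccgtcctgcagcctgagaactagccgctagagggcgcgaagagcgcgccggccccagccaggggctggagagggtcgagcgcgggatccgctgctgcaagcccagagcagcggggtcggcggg
Col25a1 promoter: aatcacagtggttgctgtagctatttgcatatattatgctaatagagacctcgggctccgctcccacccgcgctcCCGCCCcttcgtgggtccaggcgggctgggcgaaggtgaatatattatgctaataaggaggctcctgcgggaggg
Col14a1 upstream: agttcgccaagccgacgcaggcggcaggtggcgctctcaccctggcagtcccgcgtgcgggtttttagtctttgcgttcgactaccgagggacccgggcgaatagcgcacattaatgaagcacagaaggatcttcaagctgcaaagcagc
The Col25a1 peak held a direct repeat of 16 bases, starting at bases 29 and 115, and 1 GGGCGG match. The Itga8 and Col14a1 stretches held none of the motifs searched.

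A shared promoter peak was found at 54 of the 81 members, 66.7%, beside 64.6% of all protein-coding genes. In replicate 1 alone 65 members had a promoter peak, against a background of 69.9% of all genes, and in replicate 2 alone 57 had one, against 65.7%. The members' 80.2% in replicate 1 and 70.4% in replicate 2 thus lay above the genome-wide share by more in replicate 1. The share differed among the classes, at 14 of 17 basement membrane genes (82.4%), 8 of 11 fibrillar collagens (72.7%), 18 of 26 integrins (69.2%) and 14 of 27 other collagens (51.9%). Calls that differed between libraries ran mostly one way: 10 members (12.3%, beside 4.88% of all genes) had a promoter peak in replicate 1 only and 2 (2.47%, beside 0.647%) in replicate 2 only, the library with fewer peaks. A further 14 members (17.3%, beside 29.5% of all genes) had none in either library, and Itga7 had 1 in each library with no overlap between them.

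Where present, the promoter peaks of the members were low in score. The strongest promoter peak of each of the 54 called members had a median score of 84 in replicate 1 and 45 in replicate 2, beside 130 and 96 over the 14169 protein-coding genes with a shared promoter peak. Only Itgb1 (144), Col11a1 (133) and Col25a1 (132) exceeded the genome-wide median in replicate 1, and only Itgb1 (116) and Itga8 (98) did so in replicate 2. The class medians ran from 79.5 in the fibrillar collagens to 88.5 in the integrins in replicate 1. In replicate 2 they ran from 36 in the basement membrane genes to 53.5 in the fibrillar collagens, the lowest class in replicate 1.

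**Figure D1:**
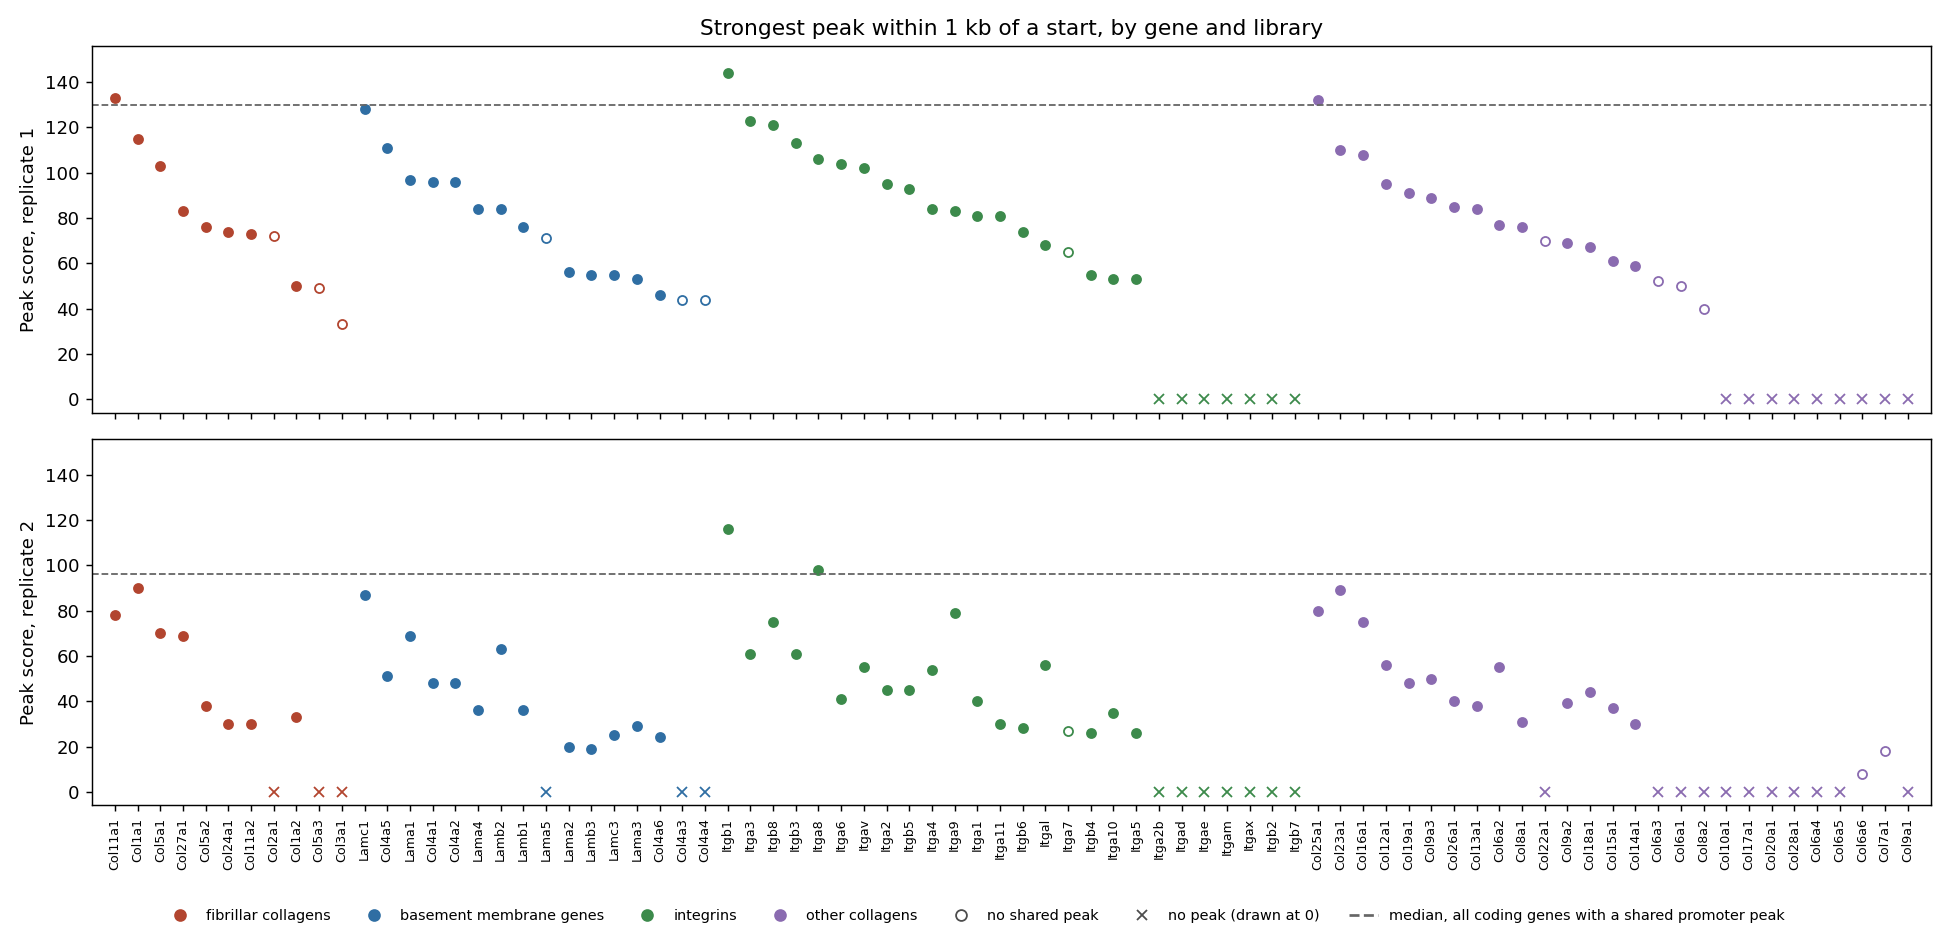
Score of the strongest promoter peak of 80 of the 81 members in replicate 1 (top) and replicate 2 (bottom), by class and ordered by the replicate 1 score. Filled points have a shared peak, open points have a peak in that library that is not shared, and crosses drawn at 0 have no peak. The dashed lines are the medians over all protein-coding genes with a shared promoter peak, 130 and 96, and 3 members in the top panel and 2 in the bottom panel lie above them.

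Among the fibrillar collagens, all 11 had a promoter peak in replicate 1 and 8 in replicate 2. The strongest at a start was that of Col11a1, which encodes a chain of the cartilage collagen type XI and nucleates fibrils. It scored 133 and 78 and lay 89 bp upstream of the start. Col5a1, a chain of the fibril-regulating type V collagen, scored 103 and 70, and Col27a1, a minor fibrillar collagen, scored 83 and 69. Col5a2 had a weaker shared peak, at 76 and 38. The strongest replicate 1 peak of Col24a1 was shared at 74 and 29 and that of Col11a2 at 73 and 27, and other shared peaks of both genes reached 30 in replicate 2.

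The chains of type I collagen, the main collagen of bone, skin and the meninges, had their shared peaks away from the start. At Col1a1 the single promoter peak of each library lay inside the first kilobase of the gene, 967 bp downstream of the start in replicate 1 and 947 bp in replicate 2, and scored 115 and 90. No peak of either library lay nearer to the Col1a1 start. At Col1a2 the shared peak lay 858 bp downstream and scored 50 and 33. Replicate 1 alone had a nearer peak, 178 bp from the Col1a2 start. Both calls are lost with a promoter window of 500 bp, which leaves 6 of 11 fibrillar collagens.

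The 3 fibrillar collagens with a promoter peak in replicate 1 only were Col2a1, Col5a3 and Col3a1. Col2a1, the main collagen of cartilage, had 4 promoter peaks in replicate 1, the strongest scoring 72, and none in replicate 2. Its gene body and surroundings nevertheless held 10 shared distal peaks, the most in the class, of which 6 lay in its introns. The strongest of them, 11604 bp downstream of the start, scored 144 and 90 and is the repeat-bearing sequence shown above. Col3a1, the type III collagen of vessel walls and skin, scored 33 in replicate 1, the lowest promoter value in the class. It had 2 shared distal peaks, which overlap each other, and 1 distal peak in replicate 2. Col5a3, which encodes a further type V chain, scored 49 in replicate 1 and had 7 shared distal peaks, 3 of which were nearest to its own start.

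The fibrillar collagens had a median of 5 shared distal peaks per gene, beside 3 over all protein-coding genes. In the single libraries the medians were 10 and 6, beside 8 and 4. After Col2a1 followed Col11a2, Col1a1 and Col5a3 with 7 each. Col24a1 and Col5a2 had 0 and Col3a1 had 2. At Col11a2 none of the 7 was nearest to its own start, whereas at Col11a1 all 5 were. Across all genes, 82.3% had at least 1 shared distal peak, and 9 of 11 fibrillar collagens, 13 of 17 basement membrane genes, 23 of 26 integrins and 26 of 27 other collagens did.

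All 17 basement membrane genes had a promoter peak in replicate 1 and 14 did in replicate 2. Lamc1, the gamma chain of most laminins, had the strongest in each library, at 128 and 87, which were different peaks, and 3 shared peaks at its start. The strongest replicate 1 peak was shared at 128 and 75. Lama1, the alpha chain of the early embryonic and neuroepithelial basement membrane, scored 97 and 69, and Lamb2, the beta chain of the neuromuscular synapse, had shared peaks of 84 and 56 and of 81 and 63. Lamb1, the beta chain of the embryonic laminins, was lower, at 76 and 36. Of the other alpha chains, Lama4, found in vessel walls, scored 84 and 36, and Lama2, the chain of muscle and nerve, scored 56 and 20. Lama5 was the only laminin chain without a shared promoter peak: it had 3 promoter peaks in replicate 1, the strongest scoring 71, and none in replicate 2.

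Lama3 and Lamb3, chains of the laminin that anchors skin epithelium, were also called, Lama3 at 53 and 29 and Lamb3 at 55 and 19. The Lamb3 call stood at the start of the transcript Lamb3-209, which lies 94268 bp upstream of the starts of Lamb3-201 and Lamb3-202. Those starts had no peak in either library. Lama3 likewise had its peak at the start of the long transcript Lama3-201 and none at that of Lama3-202, 170380 bp farther into the gene. The presence of a promoter peak at these genes thus depended on which annotated start was read.

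The type IV collagens lie in head-to-head pairs. The starts of Col4a1 and Col4a2, the chains of nearly every basement membrane, are 21 bp apart, and the same 3 shared promoter peaks, the strongest at 96 and 48, counted for both genes. Col4a3 and Col4a4, chains of the glomerular basement membrane, start 127 bp apart, and each had a strongest promoter peak of 44 in replicate 1 and none in replicate 2. The starts of Col4a5 and Col4a6 are 1309 bp apart and had a separate peak each, at 111 and 51 for Col4a5 and at 46 and 24 for Col4a6. With each pair counted once, an alternative chosen after seeing the data, 12 promoters had a shared peak.

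Basement membrane genes had a median of 3 shared distal peaks, the same as over all protein-coding genes, with 9 in replicate 1 and 4 in replicate 2. Lamc3, a gamma chain reported from the retina and the brain surface, stood apart with 10, of which 5 lay in its introns and 8 were nearest to its own start. Col4a1 and Col4a2 had the same 5. Col4a5, Col4a6, Lama2 and Lama4 had 0. Around Lama4, replicate 1 had 12 distal peaks, scoring from 15 to 47, and replicate 2 had 0. The strongest shared distal peak of the class, the CTCF-bearing sequence 25592 bp upstream of Lama5, scored 100 and 78 and was nearest to the start of another gene, Rps21.

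**Figure D2:**
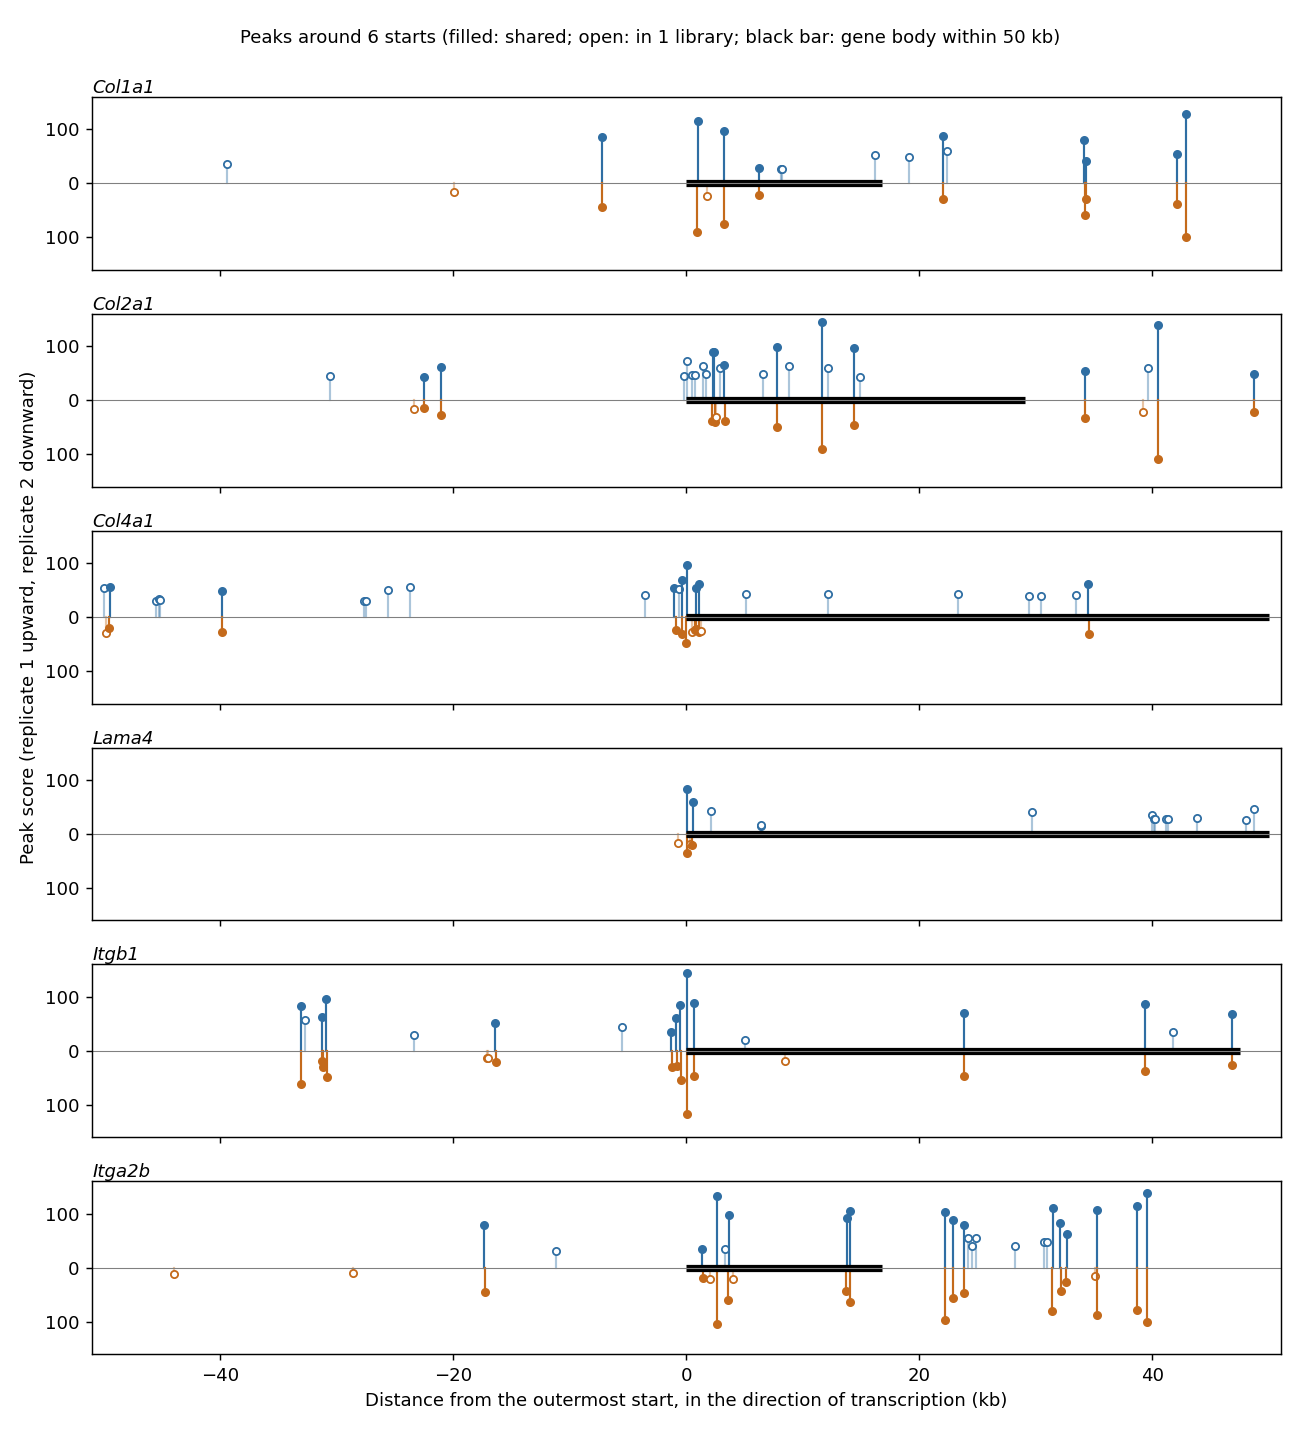
Peaks within 50 kb of the outermost start of 6 members, by distance from the start in the direction of transcription (kb), with scores of replicate 1 drawn upward and of replicate 2 downward. Filled points are shared, open points are found in 1 library, and the black bar is the gene body, cut at 50 kb. Peaks near starts of neighbouring genes are drawn too and do not count as distal. The Col1a1 peak stands 967 bp inside the gene, Col2a1 has its strongest distal peak at 11604 bp with 144 and 90, Lama4 has shared peaks at its start only, and Itga2b has none within 1 kb of its start.

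Among the integrins, 19 of 26 had a promoter peak in each library and 18 had a shared one. Itgb1, the beta subunit that pairs with most alpha subunits, had the strongest promoter peak of all members, at 144 and 116, and 4 shared promoter peaks. Itgb8, which activates TGF-beta in the neural tube, had shared peaks of 121 and 70 and of 120 and 75, and Itgb3 scored 113 and 61. Itgb5 scored 79 and 42 at its outer starts and 93 and 45 at the start of Itgb5-207, 62276 bp inside the gene. Itgb6 scored 74 and 28, and the shared peak of Itgb4 scored 45 and 26. Itgb2, the subunit of leukocytes, and Itgb7, the subunit of gut-homing lymphocytes, had no promoter peak in either library, which left 6 of 8 beta subunits called.

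The alpha subunits were read by the ligand or the cells they are known for. The 5 subunits listed as binding RGD-containing ligands or fibronectin were called. Itga2b, which binds such ligands too, was listed with the leukocyte and platelet subunits. Itga8 scored 106 and 98, Itgav scored 102 and 55, and Itga9 scored 83 and 79. Itga4 (84 and 54) and Itga5 (53 and 26), both fibronectin receptors, were lower. The 4 collagen-binding subunits were called as well, with Itga2 at 95 and 45, Itga1 at 81 and 40, Itga11 at 81 and 30 and Itga10 at 53 and 35. Of the 3 laminin-binding subunits, Itga3 (123 and 61) and Itga6 (104 and 41) had 3 shared peaks each. Itga7, known from muscle, had a peak in replicate 1 scoring 65 at 27 bp from the start and another in replicate 2 scoring 27 at 511 bp.

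The subunits known from leukocytes and platelets had 1 of 6 called, beside 64.6% of all protein-coding genes. Their promoters had a median CpG observed/expected ratio, taken over 500 bp each side of the outermost start, of 0.237, beside 0.46 in the collagen-binding, 0.757 in the RGD and fibronectin-binding and 0.825 in the laminin-binding subunits, and the part of CpG content in these calls was not tested. Itga2b, Itgad, Itgae, Itgam and Itgax had no promoter peak in either library. Itgal had a shared peak scoring 68 and 56, but it stood at the start of Itgal-203, 13258 bp inside the gene, and the outer starts had none. Without these 6 genes and their beta partners Itgb2, Itgb3 and Itgb7, a choice made after seeing the data, 16 of the 17 remaining integrins were called. This removal took out every integrin without a shared promoter peak except Itga7, so the higher share follows from the choice itself. The list of leukocyte markers had a shared promoter peak at 1 of 6 genes (Cd68, at 58 and 22) and no shared one at Ptprc, Csf1r, Aif1, Cx3cr1 or Spi1. The platelet list, which includes Itga2b, had 1 of 6. The median CpG ratios of the leukocyte and platelet lists were 0.1997 and 0.193. Over all genes, 9.31% were called below a ratio of 0.2 and 33.1% between 0.2 and 0.4. The part of leukocytes and platelets in the peaks at these integrins was not tested.

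The integrins had a median of 4 shared distal peaks, with 10 and 5 in the single libraries. The most, 11, lay around Itga2b, the platelet fibrinogen receptor subunit that had no promoter peak within 1 kb. Its nearest shared peak lay 1312 bp from the start, and a promoter window of 2500 bp calls the gene. Of the 11 peaks, 5 lay in its own introns, the strongest 2672 bp downstream of the start at 133 and 104. Of all 11, 4 were nearest to its own start. Itga10 followed with 9, of which 1 was nearest to its own start, and Itga3 and Itga7 had 8. Itga1, Itgad and Itgax had 0. The strongest distal peak assigned to any integrin, at 144 and 122, lay 41949 bp upstream of Itgal in an exon of the zinc-finger gene Zfp771, and the nearest start was that of Dctpp1. For the integrins, the median was 2 when a peak counts only for the gene with the nearest start, beside 1 over all genes.

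**Figure D3:**
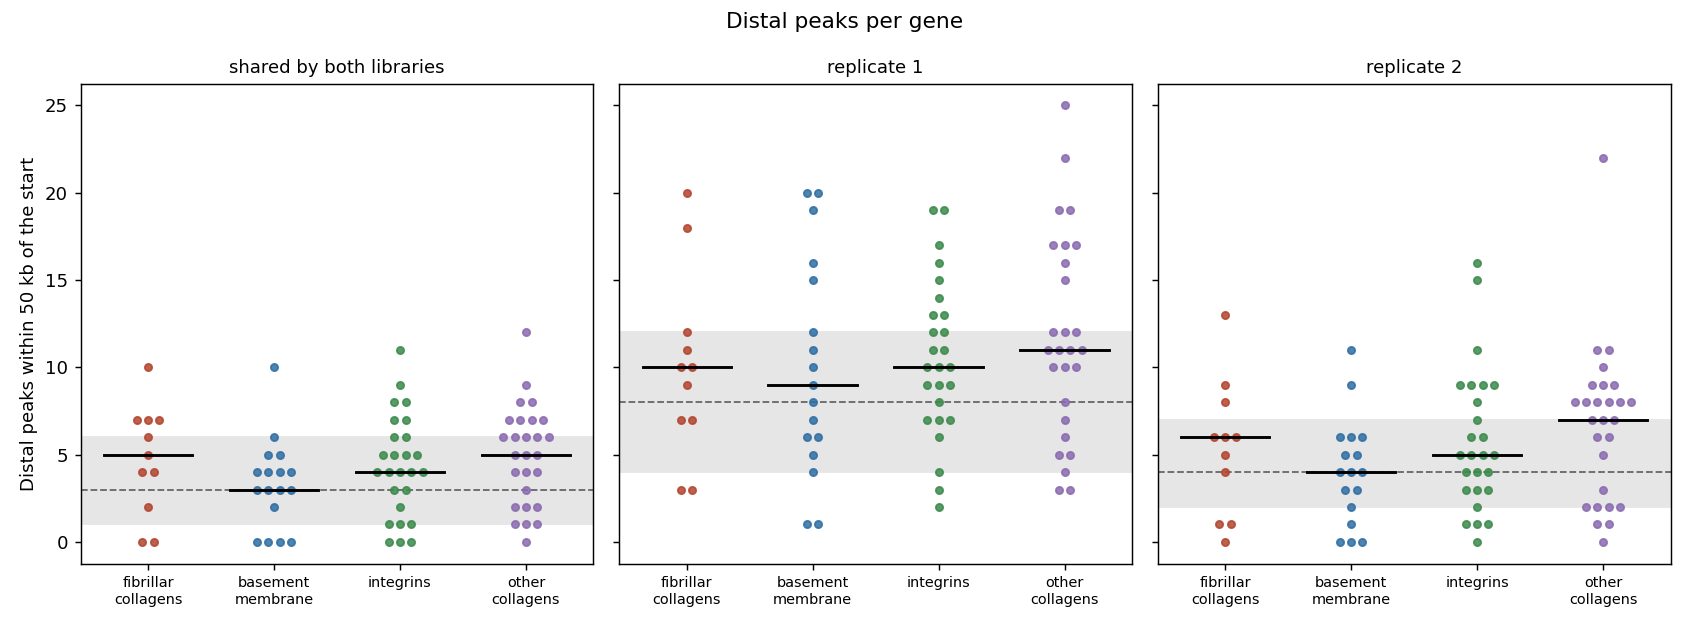
Distal peaks within 50 kb of the outermost start for each member by class, shared (left), in replicate 1 (middle) and in replicate 2 (right). Each point is a gene and each black bar a class median (5, 3, 4 and 5 for shared peaks). The dashed line and the grey band are the median and quartiles over all protein-coding genes, 3 with quartiles of 1 and 6 for shared peaks, and the class medians lie within the band in the left panel.

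The other collagens had shared promoter peaks at 14 of 27 genes, the lowest count relative to class size. The transmembrane collagens Col25a1, made by neurons, and Col23a1 scored 132 and 80 and 110 and 89. Col16a1, one of the collagens that associate with fibrils (FACIT), scored 108 and 75, and 6 of the 9 FACIT genes were called, Col12a1 next at 95 and 56. Both multiplexins, which lie in basement membranes, were called at modest scores, with shared peaks of 67 and 24 and of 63 and 44 at Col18a1 and of 58 and 37 at Col15a1. The Col18a1 peaks stood at its outermost start, and the starts 52602 bp farther in had none.

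Of the 6 type VI chains, which form beaded microfibrils around many cells, Col6a2 alone had a shared promoter peak, at 77 and 55. The median CpG ratio of these chains was 0.287, and 33.1% of all genes were called between 0.2 and 0.4. Col6a1 (50) and Col6a3 (52) had a promoter peak in replicate 1 only, Col6a6 in replicate 2 only with a score of 8, and Col6a4 and Col6a5 had none in either. Among the remaining genes, Col22a1 (70) and Col8a2 (40) were called in replicate 1 only and Col7a1, the anchoring fibril collagen of skin, in replicate 2 only (18). No promoter peak was found in either library at Col9a1, Col10a1, Col17a1, Col20a1 and Col28a1. Col9a1 and Col10a1 are cartilage collagens and Col17a1 belongs to epithelial hemidesmosomes. The partner chains of Col9a1 in the cartilage collagen type IX did have shared promoter peaks, Col9a3 at 89 and 50 and Col9a2 at 69 and 39. Of the cartilage markers, 4 of 6 had a shared promoter peak, beside 64.6% of all protein-coding genes. They were Sox9 (129 and 91), Runx2 (109 and 72), Hapln1 (104 and 52) and Acan (69 and 27). Comp had a promoter peak in replicate 1 only (37), and Matn1 had none in either library.

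Distal peaks were as frequent around these genes as around the fibrillar collagens, with a median of 5 shared and 11 and 7 in the single libraries. Col15a1 had the most of all members, 12 by replicate 1 peaks, all nearest to its own start and 9 of them in its introns. In replicate 2 Col15a1 had 11 distal peaks, and its promoter scores were modest. Col22a1 had 9, all nearest to its own start, without a shared promoter peak. Col16a1 and Col6a4 had 8. Col6a2 had 0, and Col19a1, Col25a1 and Col8a1 had 1. The strongest shared distal peak lay 1239 bp upstream of Col14a1, just outside the promoter window, at 124 and 98. Within the window Col14a1 had shared peaks of 59 and 25 and of 44 and 30. Next came a peak in an intron of Col18a1, 35817 bp from the outermost start, at 113 and 98.

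The promoter calls were set beside the CpG content of the promoters, measured as the observed/expected CpG ratio within 500 bp of the outermost start, since CpG-rich promoters tend to be open in most tissues. Over all genes the share with a shared promoter peak ran from 9.31% below a ratio of 0.2 to 98.5% at 0.8 and above. Members above 0.8 were called at 8 of 8. The classes differed between 0.2 and 0.4, where 33.1% of all genes were called. There, 5 of 5 fibrillar collagens (Col1a1, Col1a2, Col5a2, Col11a2, Col24a1) and 4 of 4 basement membrane genes (Col4a6, Lama2, Lama4, Lamb2) had a shared peak, whereas 3 of 7 integrins and 0 of 9 other collagens did. Between 0.4 and 0.6, with 80.6% over all genes, the order turned. The calls were 7 of 7 other collagens, 5 of 7 integrins, 3 of 5 basement membrane genes and 1 of 2 fibrillar collagens. The uncalled basement membrane genes of this band were Col4a3 and Col4a4, which form 1 head-to-head pair. These counts are small and describe single genes. Between 0.2 and 0.4, the Col1a1 and Col1a2 peaks lay outside the 500 bp used for the ratio. The Itgal peak stood at an inner start. Col4a6, Lama2 and Itgb6 were not called with peaks at or above the median score. Between 0.6 and 0.8, where 5448 of 5734 genes were called, 3 of 20 members had no shared peak: Col2a1, Col8a2 and Lama5. The lower scores of the members were seen within each of these bands too. From the lowest band to the highest, the called members had median scores of 55, 73.5, 81, 91 and 103.5 in replicate 1, beside 83.5, 97, 116, 132 and 137 over all called genes. In replicate 2 they were 19, 34, 44.5, 48 and 65.5, beside 44, 53, 75, 99 and 108. The lowest band held Lamb3 as its one called member.

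**Figure D4:**
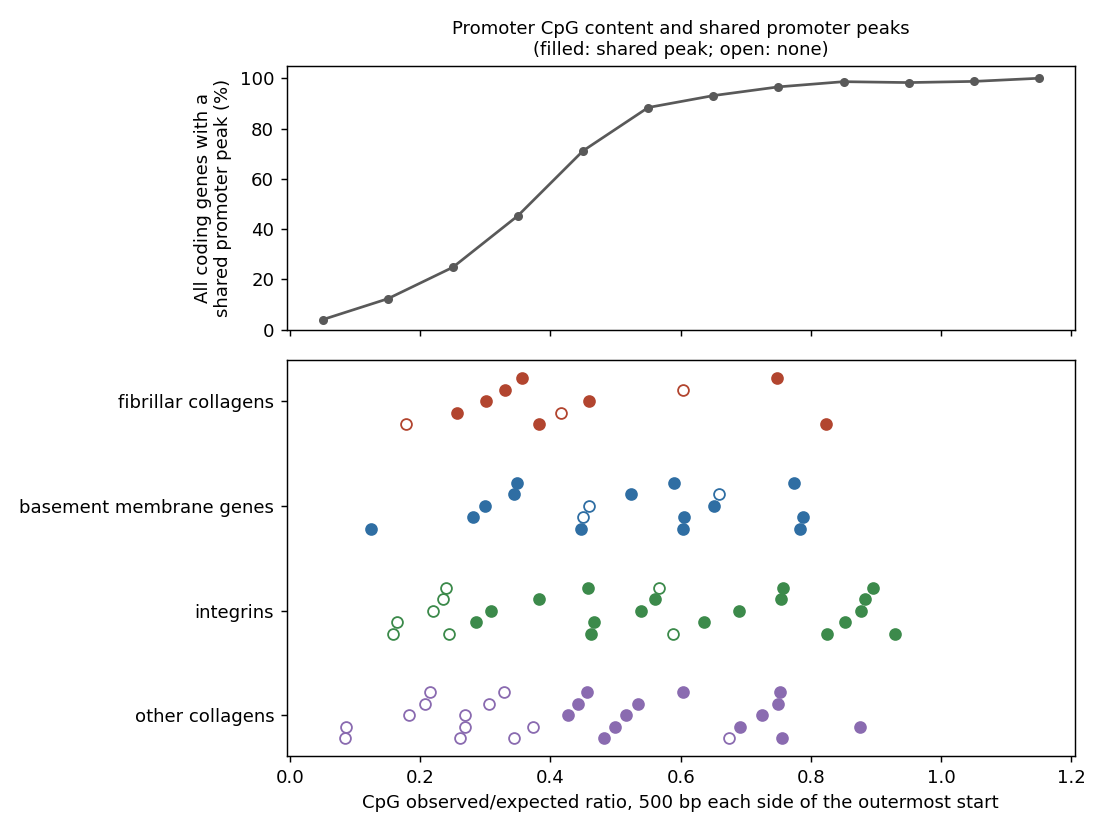
Top, share of all protein-coding genes with a shared promoter peak by CpG observed/expected ratio of the promoter, in steps of 0.1. Bottom, the same ratio for each member by class (the vertical offset within a class carries no value), filled where a shared promoter peak was found and open where none was. Between 0.2 and 0.4, 9 of 9 fibrillar collagen and basement membrane points are filled and 9 of 9 points of the other collagens are open.

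Overlap between the libraries was counted for the peaks around the members. Of the 580 replicate 2 peaks at members, 455 (78.4%, 95% Wilson interval 74.9 to 81.6) overlapped a replicate 1 peak, beside 77.1% of all replicate 2 peaks. Of the 1010 replicate 1 peaks, 449 (44.5%, 41.4 to 47.5) overlapped a replicate 2 peak, beside 42.4% of all. The intervals cover counting error only. Among promoter peaks of replicate 1, members had 59.0% (51.5 to 66.0) shared, beside 66.9% over all promoters, and among distal peaks of replicate 1 they had 41.5% (38.2 to 44.8) shared, beside 37.2% over all. Over the 449 shared peaks at members, scores of the libraries had a Spearman correlation of 0.82 across peaks, beside 0.857 over all 111722 shared peaks, given as a description because neighbouring peaks are not independent. Replicate 1 had more distal peaks than replicate 2 at 72 of the 81 members, the same number at 3 and fewer at 6.

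Genes that work with the members were read in 3 lists, beside the 64.6% of all protein-coding genes with a shared promoter peak. Basement membrane linkers and matrix glycoproteins had a shared promoter peak at 11 of 12, led by the dystroglycan gene Dag1 (144 and 125), Nid1 being the exception. Collagen-processing enzymes and chaperones had one at 16 of 18, with P4hb (146 and 123), a subunit of prolyl 4-hydroxylase, and P4ha1 (142 and 136) the strongest and the crosslinking enzymes Loxl2 and Loxl4 without one. Intracellular integrin adaptors had one at 12 of 16, with Lims1 at 142 and 114 and Ptk2, the focal adhesion kinase, at 141 and 122. Fermt3, the kindlin of blood cells, had no promoter peak in either library, and Tln2, Fermt1 and Lims2 had one in replicate 1 only. Of the cell type lists, neural markers had 6 of 6 shared promoter peaks, meningeal and fibroblast markers 6 of 7 and pericyte markers 4 of 6. Their median CpG ratios were 0.724, 0.87 and 0.437. Over all genes, 98.5% were called at 0.8 and above and 80.6% between 0.4 and 0.6. Endothelial markers had 3 of 7 at a median ratio of 0.318, and 33.1% of all genes were called between 0.2 and 0.4. The 3 were Kdr (93 and 40), Egfl7 (90 and 61) and Cldn5 (66 and 23). Tie1 (42) and Tek (35) had a promoter peak in replicate 1 only, and Pecam1 and Cdh5 had none in either library. The part of each cell type in the peaks at the members was not tested.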

How the data were processed

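DNase-seq peaks and hotspots of 2 libraries (1 group) were used as deposited, in mm10 coordinates. Per the text deposited with each sample, both were called separately for each replicate from filtered alignments. Aligner, caller, versions and thresholds: not given in the sources used here. Peak scores, as deposited, are whole numbers of unstated meaning and were therefore set beside each other within a library only. Each deposited hotspot has its −log10 q-value, capped at 100, and hotspots served as an alternative to peaks. The files hold no read counts, so depth is unknown and no limit from depth can be given.

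Peaks off the assembled chromosomes were left out (253 in replicate 1, 303 in replicate 2). All others lay within the chromosome lengths of GRCm38.p6 (RefSeq), from which sequence was read. Starts came from the basic transcripts of GENCODE M21, and the outermost start is the farthest upstream of them. A gene's nearest peaks and distal counts were computed in Python 3.11.15 with numpy 2.4.6 and scipy 1.17.1, and the functions were tested on simulated data. Symbols that share only a prefix (Itgb3bp, Itgb1bp1, Itgb1bp2, Itgb2l, Col4a3bp) were left out. Neighbouring genes can count the same distal peak. Positions and sequences of shared peaks are those of replicate 1.

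The members, classes, lists and motifs were chosen with earlier results of these data known. Any member could be named. In each class those named always include the members with the most and fewest distal peaks, those whose promoter call differed between libraries or was absent, and the strongest shared promoter and distal peaks by mean score percentile. Of each such peak, the stretch outside annotated untranslated regions was shown where it reached 100 bp, otherwise that of the next strongest. None was taken from chromosome 18, and the Itgal peak, in a neighbour's exon, is named only. The values of 1 member and the sequence of 1 peak are not reported here, though the counts and medians include them. The shares of lists carry no test. Alternatives were promoter windows of 500 and 2500 bp, distances of 20 and 100 kb, an overlap of 50%, peaks at or above the median score, hotspots, the nearest start only, other list borders, and each replicate alone.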

Additional observations from a re-analysis of the deposited data

How the results depend on the processing

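With 1 group of 2 libraries, precision rests on 2 samples. No paired analysis was possible because there was only 1 group. Promoter counts stayed within 1.5 times under every alternative run, apart from the basement membrane genes with peaks at or above the median score, where 9 were called. Each replicate alone called 8 to 11 fibrillar collagens, 14 to 17 basement membrane genes, 19 integrins and 16 to 18 other collagens. In all 8 promoter settings 40 members were called, and 12 in none.

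Distal medians moved with the distance. For fibrillar collagens, basement membrane genes, integrins and other collagens they were 2, 1, 2 and 2 at 20 kb (1 over all genes), and 12, 7, 10 and 9 at 100 kb (7 over all genes). With peaks at or above the median score they were 3, 1, 2.5 and 3 (2 over all genes). With peaks counted only for the nearest protein-coding start, fibrillar collagens had 3, basement membrane genes 2, integrins 2 and other collagens 3 (1 over all genes). Leaving out either replicate gave 6 to 10, 4 to 9, 5 to 10 and 7 to 11 (4 to 8 over all genes). The order of the classes was thus not the same in every setting. The members had a median of 1 other coding gene starting within 50 kb, beside 2 over all genes. Their median gene length was 82520 bp, beside 17425 bp over all genes. The part of neighbouring starts and gene length in the distal counts was not tested.

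Of the replicate 2 peaks at members, 71.7% overlapped replicate 1 when an overlap of 50% was required, 94.2% with peaks at or above the median score and 81.8% within 20 kb. Of the replicate 1 peaks, 40.7% overlapped replicate 2 at an overlap of 50% and 48.8% with peaks at or above the median score. Without leukocyte and platelet subunits, an alternative chosen after seeing the data, the integrin median was 5. Apart from what each setting itself changes, the cause was not tested.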

Other observations

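Col23a1, a transmembrane collagen, was 1 of the 6 members with more distal peaks in replicate 2, the library with fewer peaks overall: 22 in replicate 2 against 12 in replicate 1, of which 4 were shared. The 18 peaks found in replicate 2 alone scored from 3 to 18 with a median of 6, beside a median of 16 over all distal peaks found in replicate 2 alone. Itga10 followed with 15 against 11. At Lama4 and Col25a1 the difference ran the other way, with 12 against 0 and 11 against 1.

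The motif matches at the members were counted beside all shared peaks of the same kind. Among promoter peaks, GGGCGG was found in 38.2% of 102 peaks at members and 38.1% of all, CCAAT in 9.80% (95% Wilson interval 5.41 to 17.1) against 21.5%, and CCGGAA in 3.92% (1.54 to 9.65) against 12.2%. Among the 347 distal peaks at members, CAGCTG was found in 18.2% against 16.6% of all, TAATTA in 5.19% against 6.85% and the CTCF consensus in 9.51% (6.85 to 13.1) against 6.86%. The CTCF share was 13.3% (8.21 to 20.8) of 113 distal peaks at integrins and 10.4% (4.53 to 22.2) of 48 at basement membrane genes. It was 7.69% (3.03 to 18.2) of 52 at fibrillar collagens and 6.72% (3.57 to 12.3) of 134 at the other collagens, so the intervals overlap. GGGCGG was found in 14.2% of the distal peaks at integrins, beside 6.12% of all. Of these integrin peaks, 13.3% lay in exons, beside 5.17% of all distal shared peaks. Matches describe the letters of the peaks and were not tested.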
